A study of Mus musculus with 4 samples.

Results

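In single cells of fracture callus and trabecular bone, 10 protein genes of the mouse mitochondrial genome were described: mt-Nd1, mt-Nd2, mt-Nd3, mt-Nd4, mt-Nd4l, mt-Nd5, mt-Nd6, mt-Cytb, mt-Atp6 and mt-Atp8. They were chosen by symbol, and the group was proposed with measured values of these 4 libraries known, among them the levels in GC and control cells. Every level and ratio below is therefore a description and no test was made. All 10 were found, as 10 of the 13 mt- genes and of 32285 genes in all. The other 3 mt- genes, mt-Co1, mt-Co2 and mt-Co3, encode subunits of cytochrome c oxidase and served as the comparison inside the same genome. No ribosomal or transfer RNA of mitochondria was listed under a mt- symbol.

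Mitochondria keep a small circular genome of their own, and its protein genes encode core subunits of the machinery that makes ATP by oxidative phosphorylation. The 7 mt-Nd genes encode membrane subunits of complex I, which takes electrons from NADH and pumps protons. Cytochrome b, from mt-Cytb, is the mitochondrially encoded subunit of complex III, so the group reaches beyond complex I and the ATP synthase. mt-Atp6 and mt-Atp8 encode membrane subunits of the ATP synthase, which uses the returning protons to make ATP. Most subunits of these complexes are encoded in the nucleus and imported. The mitochondrial genome is transcribed into long RNAs that are cut at the transfer RNAs lying between genes. mt-Atp8 and mt-Atp6 lie on a shared message, as do mt-Nd4l and mt-Nd4, and mt-Nd6 is the only protein gene read from the other strand. Resorbing osteoclasts are known for many mitochondria, and mature neutrophils for few.

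The position of each gene was read from the GENCODE annotation of GRCm38, the assembly that the labels call mm10. All 13 genes lie on chromosome M as 1 exon each, without an intron, and the annotated bases run from 204 for mt-Atp8 to 1824 for mt-Nd5 among the 10. mt-Atp8 (ENSMUSG00000064356, chrM:7766-7969, + strand) shares its last 43 bases with the start of mt-Atp6 (ENSMUSG00000064357, chrM:7927-8607). mt-Nd4l (ENSMUSG00000065947, chrM:9877-10173, + strand) shares its last 7 bases with mt-Nd4 (ENSMUSG00000064363, chrM:10167-11544). mt-Nd5 (chrM:11742-13565) meets mt-Nd6 (chrM:13552-14070, - strand) over 14 bases on opposite strands. Whether counting used strand, and how a read in shared bases was counted, is not given in the sources used here, so counts at these overlaps are uncertain. mt-Atp8 and mt-Nd4l are the 2 shortest of the 10 genes and had the widest ratios of GC over control in callus. They are printed here 5′ to 3′ from the GENCODE transcripts of that assembly, with the bases shared with the next gene in capitals.
mt-Atp8: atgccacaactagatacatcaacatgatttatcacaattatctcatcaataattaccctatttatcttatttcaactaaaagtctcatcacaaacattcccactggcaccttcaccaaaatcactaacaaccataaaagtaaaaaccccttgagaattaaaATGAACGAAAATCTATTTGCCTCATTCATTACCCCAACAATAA
mt-Nd4l: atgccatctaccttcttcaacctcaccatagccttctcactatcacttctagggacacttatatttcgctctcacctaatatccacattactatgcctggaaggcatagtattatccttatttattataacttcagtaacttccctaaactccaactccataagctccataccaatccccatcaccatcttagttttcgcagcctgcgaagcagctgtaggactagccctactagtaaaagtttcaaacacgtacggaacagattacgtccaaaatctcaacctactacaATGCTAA
The capitals are 21.1% of mt-Atp8 and 2.36% of mt-Nd4l, and each run opens with the ATG of the gene that follows. Adenine makes up 40.7% of mt-Atp8, more than of any other of the 13 genes. mt-Nd6 stands apart in base composition with 28.1% G, against 5.88% to 12.2% in the other 9 genes.

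Cells came from C57BL/6J male mice aged 20 weeks that were given prednisolone, a synthetic glucocorticoid (GC), at 6.25 mg/kg/d or placebo (control), and were sampled at week 2. The labels describe subcutaneous slow-release pellets for both tissues, and the number of mice behind a library is not given. Each of the 4 groups (control and GC in callus, control and GC in trabecular bone) is 1 library, so there are no replicates, no p-value can be given, and treatment, animal, day and library cannot be told apart. The libraries held 95852254, 64388215, 41239842 and 45876714 UMIs in that order (a UMI is a tag that counts an RNA molecule once). After filtering they gave 6698, 6870, 3828 and 4602 cells with medians of 4196, 3280, 6290.5 and 5624 UMIs. The GC callus matrix alone was deposited with its barcodes already called, so how its file was prepared also cannot be told apart from treatment. Pairs of libraries shared 6 to 10 cell barcodes, against 2.59 to 6.77 from the size of the barcode list alone. The glucocorticoid target Fkbp5 was at 19.6 UMIs per 1000000 UMIs (CPM) in control and 31.1 in GC cells of callus, and at 16.1 in control and 59.9 in GC cells of trabecular bone. Of the 4 glucocorticoid targets listed, 3 were higher in GC callus, among them Tsc22d3 (1.14-fold), while Per1 was lower (52.8 and 39.5 CPM), and all 4 were higher in GC trabecular bone. Cell classes were named from markers and are called "-like". Clusters left unnamed held 18.7% of the GC callus cells and at most 0.866% of the cells of the other libraries. In brackets are 95% exact intervals, which cover counting error only.

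The 10 genes together took 8810 CPM in control callus and 9908 in GC callus, and in trabecular bone 7625 in control and 7353 in GC. Of all mt- UMIs they made up 48.3%, 51.2%, 44.5% and 43.6%. The summed level was thus highest in GC callus and the trabecular libraries were below both callus libraries. The 10 genes differed from one another far more than the libraries did. Per kilobase of annotated length, mt-Atp6 was the highest of all 13 genes in every library, from 4297 to 5592 CPM per kb, and mt-Nd6 the lowest, from 16.5 to 87.6. mt-Nd5, the longest of the 10 genes, was next to last in all 4 libraries, from 76.3 to 298 CPM per kb. In control callus mt-Cytb followed the 3 mt-Co genes at 1164 CPM per kb, then mt-Nd1 at 1042, mt-Nd4 at 930, mt-Nd3 at 872 and mt-Nd4l at 794. The order of all 13 genes was the same in control and GC trabecular bone, whereas in GC callus mt-Nd4l moved from place 9 to place 5 and mt-Atp8 from place 11 to place 7. By CPM, without division by length, mt-Atp6 was first in control callus. In GC callus and both trabecular libraries it was second to mt-Co1. mt-Nd5 was then at place 9 in control callus and place 10 in each other library, and mt-Nd6 stayed last in all 4. Levels per kilobase take reads as spread evenly along a gene, and which end of a message was read is not given in the sources used here.

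**Figure D1:**
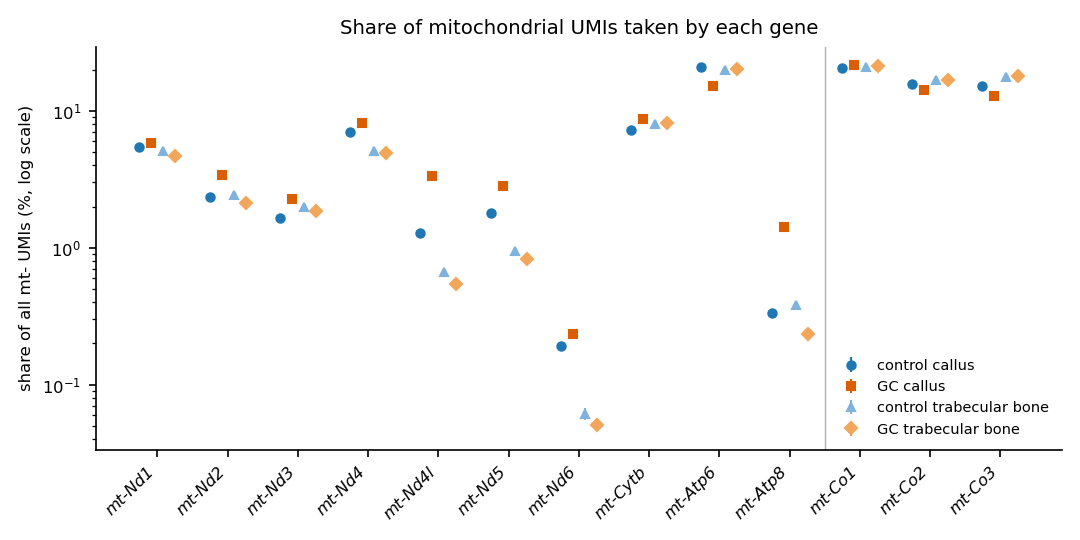
Share of all mt- UMIs taken by each mitochondrially encoded protein gene (percent, log axis) in the cells of the 4 libraries, 1 point per library with its 95% counting interval, which is mostly smaller than the point. The 10 genes described stand left of the line and the mt-Co genes right of it; mt-Atp8 and mt-Nd4l lie far higher in GC callus (1.42% and 3.34%) than in the other 3 libraries.

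In callus, the complex I genes were higher in GC than in control. mt-Nd4l, a small membrane subunit, had 236 CPM in control and 646 in GC, which is 2.74-fold (2.69 to 2.79). mt-Nd5, a proton-pumping subunit at the tip of the membrane arm, had 328 CPM in control and 543 in GC, or 1.66-fold. Another proton-pumping subunit, mt-Nd2, stood at 429 and 653 CPM (1.52-fold), just past the 1.5-fold limit used for counting. mt-Nd3, whose product lies where the membrane arm meets the matrix arm, had 303 and 439 CPM (1.45-fold) and stayed just short of it. mt-Nd6 on the other strand had 34.6 and 45.5 CPM (1.31-fold), mt-Nd4 had 1282 and 1574 (1.23-fold), and mt-Nd1 had 997 and 1121 (1.12-fold). Every one of the 7 was thus higher in GC callus by more than its counting interval, over a range from 1.12-fold to 2.74-fold. Summed, the complex I genes took 3610 CPM in control and 5023 in GC callus, a log2 ratio of 0.48 (0.47 to 0.48), and their share of mt- UMIs was 6.20 points higher.

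The genes of the ATP synthase pair lie on a shared message, and the UMIs assigned to them went opposite ways in callus. They share 43 bases, and how a read there was counted is not given in the sources used here. mt-Atp8 had 60.4 CPM in control and 274 in GC, 4.54-fold (4.39 to 4.69), the widest difference of the 13 genes. mt-Atp6 had 3808 CPM in control and 2926 in GC, a ratio of 0.768 (0.764 to 0.773), and was the only one of the 10 that was lower in GC. As mt-Atp6 is so abundant, its share of mt- UMIs was 5.73 points lower, which is more than any other gene of the 13 differed. mt-Cytb, the complex III subunit, had 1331 and 1685 CPM (1.27-fold). mt-Co3, the next gene after mt-Atp6 on the same strand, was also lower in GC, at 2768 and 2484 CPM, while mt-Co1 was higher (3783 and 4172 CPM) and the 3 mt-Co genes together were at 9440 and 9427 CPM.

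Over the 10 genes, 4 passed 1.5-fold higher in GC callus and 0 passed 1.5-fold lower. Of 15098 genes with at least 50 UMIs over both callus libraries, 10.0% passed 1.5-fold higher and 7.05% lower, and their median log2 ratio was 0.06. The median of the 10 genes was 0.46. Their summed level had a log2 ratio of 0.17 (0.16 to 0.18), small beside the spread between the genes. Other measures also differed between the callus libraries. Malat1, a nuclear RNA read here as a sign of cell integrity, was at 26351 CPM in control and 34800 in GC, 10 dissociation stress genes summed to 5044 and 4308 CPM, and 4 hemoglobin genes to 835 and 1446 CPM. Cells with over 10% mt- UMIs, removed before these sums, numbered 150 in control and 206 in GC callus. The part of these measures in the result was not tested. Without the unnamed clusters the summed log2 ratio was 0.15 and 4 of 10 genes passed 1.5-fold.

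In callus the direction of each gene recurred in most or all cell classes, least often for mt-Nd1. At least 15 cells in both libraries were held by 16 classes. mt-Atp8, mt-Nd4l and mt-Nd2 were each higher in GC by more than the counting interval in 16 of 16 classes, both as CPM and as a share of mt- UMIs. For mt-Atp8 the class log2 ratios ran from 2.00 in endothelial-like cells to 3.12 in erythroid-like cells, and for mt-Nd4l from 1.12 in T cell-like to 2.26 in erythroid-like cells. mt-Nd5 was higher in 16 of 16 classes (15 beyond the interval), from 0.44 in osteoblast- or osteocyte-like cells to 1.21 in the class with markers of neutrophil promyelocytes or granulocyte-monocyte progenitors (promyelocyte-like below). mt-Nd3 and mt-Cytb were higher in 16 of 16 classes too, 13 and 14 of them beyond the interval. mt-Nd4 was higher in 15 of 16, mt-Nd6 in 13 of 16 and mt-Nd1 in 11 of 16. mt-Atp6 had a lower level in 15 of 16 classes, the exception being immature neutrophil-like cells with a log2 ratio of 0.29, and a lower share of mt- UMIs in all 16. For mt-Nd6, which had 15 to 86 UMIs in the lymphoid classes, 3 of 16 class ratios were beyond the interval. These classes share their library, so they are not independent counts of the condition. How many of all genes keep 1 direction over the classes of a tissue was not counted.

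**Figure D2:**
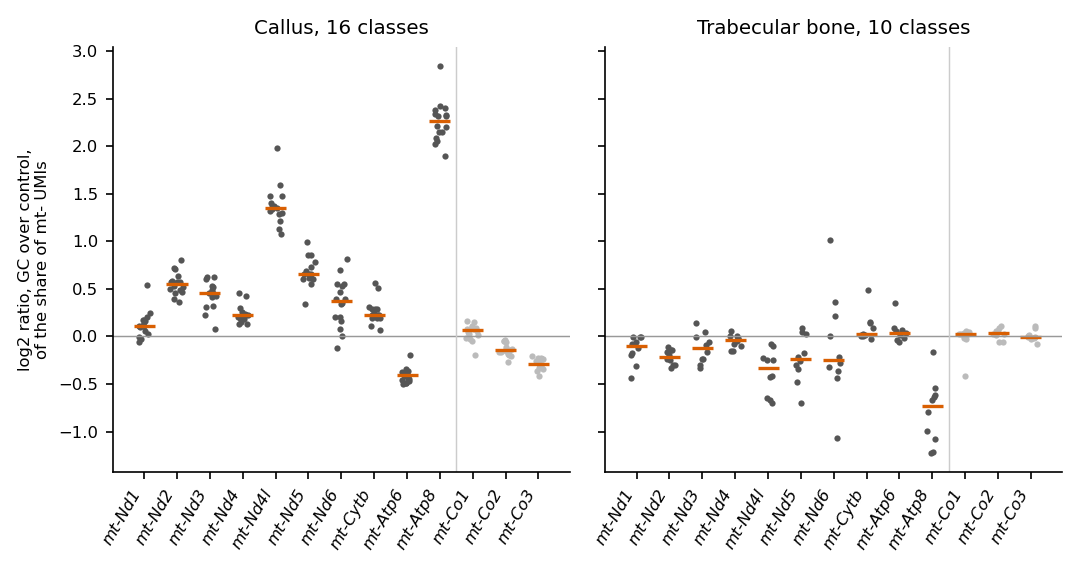
The log2 ratio of GC over control of each gene's share of mt- UMIs (y axis), 1 dot per cell class with at least 15 cells in both libraries of a tissue; all class names rest on markers. The orange bar is the median over classes, and the mt-Co genes are in grey to the right of the line. In callus all 16 dots of mt-Atp8 lie between 1.90 and 2.84 and all of mt-Atp6 below 0; in trabecular bone all 10 dots of mt-Atp8 and mt-Nd4l lie below 0.

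Named classes of callus differed in size more than in direction. Chondrocyte-like cells held more UMIs than any other class in both callus libraries (48778712 in control and 23984938 in GC). They had mt-Atp8 at 55.5 CPM in control and 231 in GC, and mt-Nd4l at 207 and 549. In hypertrophic chondrocyte-like cells mt-Atp8 stood at 38.6 and 166 CPM and mt-Atp6 at 2539 and 1691, and their 10 genes together were about level (log2 ratio -0.03). Osteoblast- or osteocyte-like cells had the lowest ratio of the summed 10 genes, 11881 CPM in control and 10889 in GC (-0.13), with mt-Atp6 at 5131 and 3154 CPM. Osteoclast-like cells went from 21084 CPM in control to 28733 in GC (0.45), where mt-Nd4l stood at 680 and 2156 CPM, mt-Nd2 at 1215 and 2234, and mt-Atp6 at 7402 and 6708. Promyelocyte-like cells (25 and 16 cells) had 13150 and 17957 CPM (0.45). The highest ratio was that of immature neutrophil-like cells, 4259 and 6727 CPM (0.66). In all, the summed level was higher in GC in 13 of 16 classes (11 beyond the interval), and the summed complex I genes and the 10 genes' share of mt- UMIs in 16 of 16. With cells of at least 3000 UMIs alone the summed level was higher in 8 of 13 classes.

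Some callus classes drew on different clusters in the 2 libraries. The B cell-like cells of control lay mostly (51.6%) in a cluster that was 94.8% control, and those of GC (69.6%) in one that was 97.1% GC. NK- or innate lymphoid-like cells (89.7% control in one, 89.5% GC in the other) and immature neutrophil-like cells (98.2% control, 93.6% GC) also lay mostly in such clusters. The largest clusters of chondrocyte-like cells (76.4% control, 95.1% GC), hypertrophic chondrocyte-like cells (91.6% control, 97.8% GC) and dendritic cell-like cells (88.6% control, 78.3% GC) were one-sided too, but held only 23.8% to 46.2% of the class in their library. Osteoblast- or osteocyte-like cells had different largest clusters as well, each with 23.0% or 23.5% of the class. By contrast, T cell-like, osteoclast-like and mature neutrophil-like cells lay mostly in clusters that both libraries shared. The mt-Atp8 log2 ratios of these whole classes were 2.29, 2.33 and 2.34. Endothelial-like, erythroid-like, promyelocyte-like, plasmacytoid dendritic cell-like and stromal- or skeletal progenitor-like cells also lay mostly in shared clusters. Among them were the lowest mt-Atp8 ratio of the 16 classes, 2.00 in endothelial-like cells, and the highest, 3.12 in erythroid-like cells. Monocyte-like cells were not compared in callus, with 240 cells in control and 1 in GC. In GC callus 18.7% of the cells were left unnamed. Whether monocytes are among them was not tested, so their number there is uncertain.

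Within a shared message, the part taken by the short first gene separated GC callus from every other library. mt-Atp8 made up 1.56% (1.52 to 1.6) of the UMIs of mt-Atp8 and mt-Atp6 in control callus and 8.56% (8.43 to 8.70) in GC callus, beside 1.87% (1.80 to 1.95) in control and 1.14% (1.08 to 1.2) in GC cells of trabecular bone. mt-Nd4l made up 15.5%, 29.1%, 11.5% and 9.88% of the UMIs of mt-Nd4l and mt-Nd4. GC callus was thus highest in both pairs and GC trabecular bone lowest. Among 18 classes of control callus the mt-Atp8 part ran from 0.942% in plasma cell-like cells to 1.76%, and among 17 classes of GC callus from 7.95% in promyelocyte-like to 10.6% in stromal- or skeletal progenitor-like cells, so the 2 libraries did not overlap. The mt-Nd4l part ran from 11.9% to 18.5% over the classes of control callus. Over those of GC callus it ran from 23.3% to 32.6%, again without overlap. The classes of a library are not independent, and how many other genes or pairs lie without overlap was not counted. Per kilobase, mt-Nd4l was below mt-Nd4 in control callus (794 and 930 CPM per kb) and in both trabecular libraries, but above it in GC callus (2177 and 1142). The pair of mt-Atp8 and mt-Atp6 together was lower in GC callus, at 3869 CPM in control and 3200 in GC, whereas the pair of mt-Nd4l and mt-Nd4 was higher, at 1517 and 2220.

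**Figure D3:**
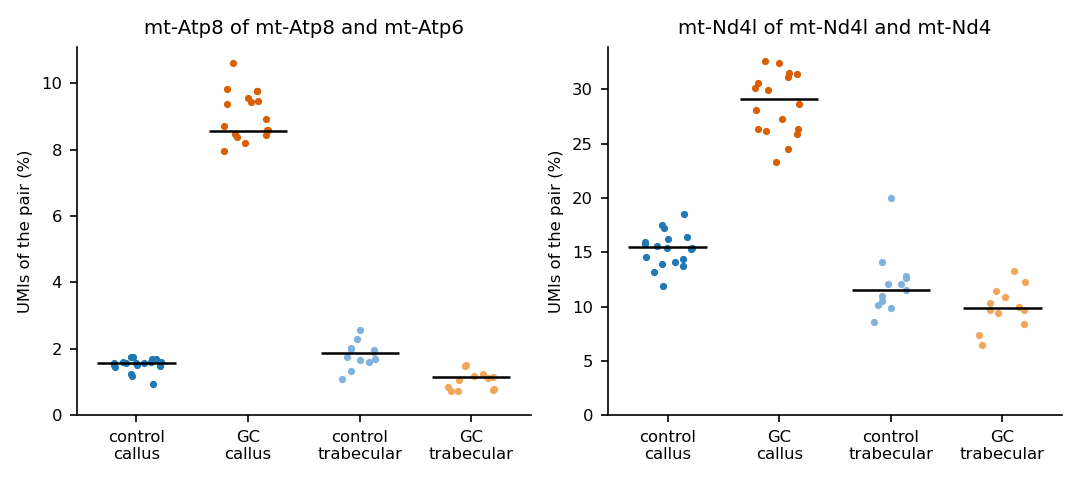
Percent of the UMIs of a pair of genes on a shared message that fell to the short first gene: mt-Atp8 of mt-Atp8 and mt-Atp6 (left), and mt-Nd4l of mt-Nd4l and mt-Nd4 (right). Each dot is a cell class with at least 15 cells in that library and the black bar is the value over all cells. In GC callus every class lies above every class of control callus, but the classes of a library are not independent.

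Cells that the filters or the naming had set aside kept the GC callus value above the control one, at levels of their own. In GC callus, mt-Atp8 took 9.76% and mt-Nd4l 29.9% of their pairs in the cells removed for over 10% mt- UMIs, and 7.08% and 24.8% in cells of unnamed clusters, against 8.77% and 29.6% in cells of named classes. In control callus the cells over the limit had 1.78% and 15.4%. Barcodes under 100 UMIs, which hold mostly free RNA, had 1.15% and 12.4% in GC trabecular bone, 1.49% and 13.1% in the control of that tissue, and 1.44% and 13.8% in control callus. No such barcodes are listed for GC callus.

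The callus difference was also seen at equal depth. With each cell thinned to 1000 UMIs and shallower cells left out (458 control and 698 GC cells in callus, 94 control and 98 GC cells in trabecular bone), a mt-Atp8 UMI was seen in 6.91% (6.29 to 7.56) of control callus cells, 25.9% (24.8 to 27.0) of GC callus cells, 4.85% of control and 2.75% of GC trabecular cells. Before thinning the shares were 37.6%, 59.4%, 26% and 19.2%. For mt-Nd4l the thinned shares were 22.1%, 43.2%, 8.62% and 6.71%, and the unthinned ones 62.8%, 72.2%, 35.8% and 30.4%. mt-Nd6 stayed rare, seen in 3.43%, 4.31%, 1.18% and 0.821% of the thinned cells. Nearly every cell type holds mitochondrial RNA, so no class could serve as a floor for free RNA.

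In trabecular bone, the differences between GC and control were smaller and mostly the other way. mt-Atp8 had 65 CPM in control and 39.3 in GC, a ratio of 0.605 (0.566 to 0.646). mt-Nd4l had 114 and 90.9 CPM (0.799), mt-Nd6 10.5 and 8.57 (0.819, resting on 357 and 323 UMIs), mt-Nd5 161 and 139 (0.862) and mt-Nd2 414 and 357 (0.863). mt-Nd1 (867 and 784 CPM), mt-Nd3 (343 and 311) and mt-Nd4 (874 and 829) had ratios of 0.905, 0.906 and 0.949. mt-Cytb at 1372 and 1386 CPM and mt-Atp6 at 3406 and 3408 CPM were not distinguishable at this depth, with log2 intervals of -0.004 to 0.032 and -0.011 to 0.012. Of the 10 genes 0 passed 1.5-fold higher and 1, mt-Atp8, passed 1.5-fold lower, beside 5.31% higher and 8.00% lower among 12157 genes. The median log2 ratio was -0.18 for the 10 genes and -0.04 for all genes, and -0.05 for the summed level. Hemoglobin took 39408 CPM in control and 70246 in GC trabecular bone, and with hemoglobin left out of the total the summed log2 ratio was -0.005. This comparison shares no library with the callus one.

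Across 10 trabecular classes mt-Atp8, mt-Nd4l, mt-Nd2 and mt-Nd1 each kept 1 direction as a share of mt- UMIs, but not as CPM. These classes share their library, so they are not independent counts of the condition. How many of all genes keep 1 direction over them was not counted. As a share of mt- UMIs, mt-Atp8 was lower in GC in 10 of 10 classes (7 beyond the interval), mt-Nd4l in 10 of 10 (7 beyond), mt-Nd2 in 10 of 10 (8 beyond), mt-Nd1 in 10 of 10 (4 beyond) and the summed complex I genes in 10 of 10 (9 beyond). As CPM, mt-Atp8 was lower in 9 of 10, with log2 ratios from -1.38 in mast cell- or basophil-like cells to 0.33 in mature neutrophil-like cells. The CPM of the summed complex I genes went either way, from -0.50 in hematopoietic progenitor-like to 0.29 in mature neutrophil-like cells. In mature neutrophil-like cells every one of the 10 genes was higher in GC as CPM, among them mt-Nd1, mt-Nd2 and mt-Nd4l (0.18, 0.25 and 0.24). The log2 ratios ran from 0.124 for mt-Nd6, not beyond its interval (-0.647 to 0.904), to 0.575 for mt-Nd5. Levels of the summed 10 genes went either way, higher in GC in 5 of 10 classes. Monocyte-like cells (log2 ratio 0.008, -0.009 to 0.026) were not distinguishable at this depth. Nor were stromal- or skeletal progenitor-like cells (-0.037, -0.110 to 0.036). Mature neutrophil-like cells (1753 and 2250 cells) had 2146 CPM in control and 2917 in GC (0.44), and T cell-like cells 17508 and 19799 (0.18), where 60% of the control cells lay in one cluster and 54.2% of the GC cells in another that was 84.1% GC. Hematopoietic progenitor-like cells (21 and 28 cells) had 17780 and 13863 CPM (-0.36), and erythroid-like cells 6357 and 5198 (-0.29). B cell-like cells reached 0.51, which rests on 16 GC cells beside 315 in control, and 56.8% of the control cells lay in a cluster that was 100% control while 87.5% of the GC cells lay in another. Mast cell- or basophil-like cells also had different largest clusters in the libraries. Among the mature neutrophil-like cells, 41.4% of each library lay in a cluster of its own (93.2% control in one, 99.4% GC in the other), with Malat1 at 13821 and 13175 CPM.

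Between the control libraries of the 2 tissues, 3 of the 10 genes stood well below their callus level in trabecular bone. mt-Nd6 had 34.6 CPM in callus and 10.5 in trabecular bone (0.302-fold, 0.270 to 0.338), mt-Nd4l 236 and 114 (0.483) and mt-Nd5 328 and 161 (0.492). The other genes lay between 0.682-fold (mt-Nd4) and 1.13-fold (mt-Nd3), and mt-Atp8 at 60.4 and 65 CPM was 1.08-fold (1.02 to 1.13). Past 1.5-fold there were 0 of 10 higher and 3 of 10 lower, beside 24.5% higher and 44.0% lower of 14660 genes, whose median log2 ratio was -0.36. Neither count was thus above the share of all genes. The 10 genes' median was -0.18 and their summed level -0.21. Cell makeup differs between these tissues: chondrocyte-like cells held 48778712 of the 79819159 UMIs of control callus cells, and no trabecular cluster was named chondrocyte-like. Malat1 was at 26351 CPM in control callus and 9623 in control trabecular bone, the dissociation stress genes at 5044 and 3050 CPM and hemoglobin at 835 and 39408 CPM, and the part of these measures in the result was not tested.

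Between the control libraries 9 classes could be compared, and in 8 the summed level of the 10 genes differed by 0.82-fold to 1.39-fold. Mature neutrophil-like cells were apart, with 7909 CPM in callus and 2146 in trabecular bone, a log2 ratio of -1.88 (-1.91 to -1.85). Their median depth was 1342 UMIs in callus and 4982 in trabecular bone. Thinned to 1000 UMIs the log2 ratio was -1.48, and with cells of at least 3000 UMIs alone, a floor that does not match depth, it was -2.56. Malat1 stood at 20779 CPM in these cells of callus and 13821 in those of trabecular bone. Single cells were spread widely around these sums: the 10th, 50th and 90th percentiles were 1439, 4919 and 13183 CPM in callus and 625, 1748 and 4614 CPM in trabecular bone.

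The level of the 10 genes ranged more widely over the classes than between the GC and control libraries. In control callus B cell-like (21397 CPM) and osteoclast-like cells (21084) were highest and did not differ beyond their intervals, followed by T cell-like (18730), endothelial-like (17433) and NK- or innate lymphoid-like cells (16425). Chondrocyte-like cells (7993 CPM) and mature neutrophil-like cells (7909) did not differ beyond their intervals either. The lowest were erythroid-like (7255 CPM), hypertrophic chondrocyte-like (5738) and immature neutrophil-like cells (4259). In GC callus osteoclast-like cells came first at 28733 CPM and hypertrophic chondrocyte-like cells last at 5634. In control trabecular bone plasmacytoid dendritic cell-like (20207 CPM), B cell-like (19405) and early erythroid-like cells (18689) led, and erythroid-like (6357), immature neutrophil-like (3487) and mature neutrophil-like cells (2146) came last. The last 3 places were the same in GC trabecular bone. Along the neutrophil series of control trabecular bone the level was thus 11527 CPM in promyelocyte-like, 3487 in immature and 2146 in mature neutrophil-like cells. In callus the mature class was above the immature one, with 13150, 4259 and 7909 CPM along this series in control and 17957, 6727 and 9758 in GC.

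**Figure D4:**
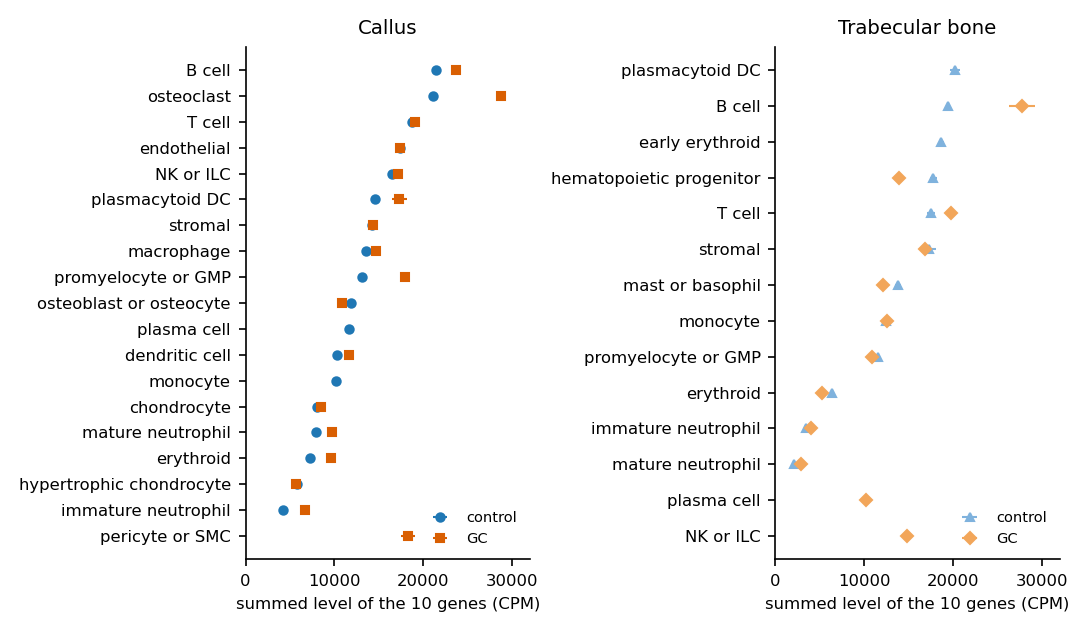
Summed level of the 10 genes in CPM (x axis) by cell class (y axis, named from markers) in callus (left) and trabecular bone (right), for classes with at least 15 cells in that library; bars are 95% counting intervals, mostly smaller than the points. In callus B cell-like and osteoclast-like cells lie at the top and hypertrophic chondrocyte-like and immature neutrophil-like cells (5738 and 4259 CPM in control) low; in trabecular bone immature and mature neutrophil-like cells have the lowest levels (3487 and 2146 CPM in control).

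Shares within mt- UMIs varied less between classes than levels did. In control callus the complex I genes took from 12.6% of mt- UMIs in erythroid-like cells to 24.0% in osteoclast-like cells, and in GC callus from 17.3% to 32.3% in the same classes. The ATP synthase pair had its lowest share in osteoclast-like cells in both callus libraries (18.1% and 14.3%). Immature neutrophil-like cells had the lowest complex I share of both trabecular libraries (12% and 10.6%), and stromal- or skeletal progenitor-like cells the highest (20.4% and 18.8%). For all 10 genes together the share in control trabecular bone ran from 36.4% in immature neutrophil-like to 56.0% in stromal- or skeletal progenitor-like cells. mt-Nd6 was highest as a share in hypertrophic chondrocyte-like cells of both callus libraries (0.306% and 0.324%). In the erythroid-like cells of callus mt-Co1 took 29.1% and 28.8% there against a median of 20.8% over the classes of each library.

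Nuclear genes of the same complexes were described as whole lists. In callus, 10 of 36 nuclear complex I genes were higher and 26 lower in GC, with a median log2 ratio of -0.12. Of these 0 passed 1.5-fold higher and 1 lower, Ndufs3 of the matrix arm, at 64.4 CPM in control and 41.1 in GC. Of 9 nuclear complex III genes 6 were higher (median 0.07, 0 past 1.5-fold). Of 16 nuclear ATP synthase genes 7 were higher (median -0.02), and Atp5k passed 1.5-fold at 131 and 198 CPM. In a list of 29 genes for mitochondrial transcription and RNA handling 19 were higher (median 0.22) and 4 of 29 passed 1.5-fold higher, beside 10.0% of all callus genes, so the share was near the background. Among them was Fastkd1, an RNA-binding protein of mitochondria, at 2.44 and 5.02 CPM. Another was Trmt10c, a subunit of the enzyme that cuts the 5′ ends of mitochondrial transfer RNAs, at 13 and 20.4 CPM. Of the 29 genes 10 were lower in GC. The lowest ratios were those of Fastk (36.4 CPM in control and 27.5 in GC) and Slirp (73.8 and 61.2 CPM). In trabecular bone 0 genes of these 4 lists passed 1.5-fold in either direction, and their medians ran from -0.02 to 0.02. Between the control tissues the nuclear complex I list had a median of 0.25 in trabecular bone over callus, and 8 of 36 passed 1.5-fold higher, led by Ndufa3 at 77.4 and 219 CPM, which is no more than the 24.5% of all genes in this comparison.

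Over 59 units of a class in a library, the levels of the 10 genes were positively correlated with one another on log2(CPM + 5), though some only weakly. Pearson's r between 2 of them ran from 0.36 for mt-Atp6 with mt-Atp8 to 0.95 for mt-Nd1 with mt-Nd3. mt-Nd4l was most like mt-Nd5 (0.94) and mt-Atp8 most like mt-Nd4l (0.93), although neither pair shares a message. These units pool the libraries, and GC callus stood apart, with mt-Atp8 at 8.56% and mt-Nd4l at 29.1% of their pairs. The part of that library in these r values was not tested. Among 8819 genes outside the mitochondrial genome those most like the summed 10 genes were Nop56 (0.88), Naa15 (0.87), Huwe1 (0.86), Ncl (0.85), Tmem245 and Ktn1 (0.84), Rps19, Ptbp1 and Matr3 (0.84) and Snrnp70 (0.83). The median r was 0.38 for the nuclear complex I genes, 0.47 for both other nuclear subunit lists, 0.56 for the 13 genes of mitochondrial transcription and RNA handling that were abundant enough to compare, -0.19 for hemoglobin and 0.23 for all genes. Median r was -0.01 for the stress genes and 0.16 for the glucocorticoid targets. Units share libraries, depth and class makeup, so these values describe likeness across the units and carry no test.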

How the data were processed

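Single-cell RNA-Seq of 4 libraries was analysed, each with 10x Genomics droplets. The deposited values are counts of UMIs per gene and barcode, without normalization. The authors' processing notes name Cell Ranger 5.0.1, Seurat 3.2.0 and mm10, whereas the matrix headers name Cell Ranger 4, and settings are not given in the sources used here. The labels describe slow-release pellets for all mice; the fracture mice are described with injections in the study's text.

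Barcodes were called as cells by a UMI cutoff and a Monte Carlo test against empty droplets (10000 simulations, at least 500 UMIs, adjusted p of 0.01) in 3 libraries, while GC callus was used as deposited. Barcodes with under 200 genes, over 10% mt- UMIs or the highest doublet scores (0.8% per 1000 cells; 423, 453, 128 and 189 cells) were removed. Each tissue was clustered (2000 variable genes, 30 components, 15 neighbors, Leiden resolution 1) and clusters were named from 165 markers of 25 classes; the rule for naming came after a look at the clusters. Levels are summed UMIs per 1000000 UMIs, and ratios carry exact 95% counting intervals (conditional binomial for ratios, Poisson for levels, Clopper-Pearson for shares). Genes with at least 50 UMIs over both libraries formed the background, and classes needed 15 cells. The 10 genes and all lists were chosen with earlier results of these data known. Named were the 10 genes, the mt-Co genes, at most the 2 highest and 2 lowest of each list, and the 10 genes most alike. Steps were tested on simulated data. Other mitochondrial limits, cell floors, doublets kept, other denominators, thinning, class weights, resolutions and thresholds were tried. Tools were matplotlib 3.10.9, numba 0.67.0, leidenalg 0.10.2, scipy 1.17.1, igraph 0.11.9, numpy 2.4.6, scikit-learn 1.9.0 and pandas 2.3.3 under Python 3.11.15.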

Additional observations from a re-analysis of the deposited data

Results flagged for a closer look

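Over all cells of a library, the GC over control ratio differed in sign between the tissues for most of the 10 genes. Subtracting the trabecular log2 ratio from the callus one gave 0.22 for the summed 10 genes, 0.62 for the summed complex I genes, 0.31 for mt-Nd1, 0.82 for mt-Nd2, 0.68 for mt-Nd3, 0.37 for mt-Nd4, 1.78 for mt-Nd4l, 0.94 for mt-Nd5, 0.68 for mt-Nd6 and 2.91 for mt-Atp8. Over all cells, each of these sums and genes was higher in GC callus and lower in GC trabecular bone. Within trabecular classes this did not always hold, as the summed 10 genes were higher in GC in 5 of 10. Among these were mature neutrophil-like cells (log2 ratio 0.44, complex I genes 0.29) and immature neutrophil-like cells (0.19, complex I genes 0.06). With 1 library a group the differences were not tested, and the classes weighted by cells turned the trabecular sum (0.24).

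Barcodes under 100 UMIs, outside every comparison, held the 10 genes at 83959 CPM in GC trabecular bone, 57840 in the control of that tissue and 64700 in control callus, above the 7353 to 8810 CPM of the called cells of these libraries. GC callus lists no such barcodes.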

How the results depend on the processing

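Depth limits mt-Nd6 most, at 323 to 2764 UMIs a library. No paired analysis was possible because each group is 1 library, and for the same reason leaving out a library was not possible. The cause of the shifts below was not tested.

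The callus log2 ratio of the summed 10 genes (0.17) was 0.11 and 0.18 at mitochondrial limits of 5% and 20%, 0.20 without a limit, 0.15 with doublets kept, 0.20 as a mean over cells, 0.19 thinned to 1000 UMIs, 0.15 with cells of at least 3000 UMIs, 0.15 in named classes alone (added after seeing the data) and 0.16 with classes weighted by cells. The trabecular ratio (-0.05) was -0.001 at 5%, -0.065 at 20%, -0.016 without a limit, -0.011 with 1 floor for all libraries, -0.005 without hemoglobin, -0.19 as a mean over cells, -0.20 thinned, -0.026 at 3000 UMIs, -0.014 with all barcodes, and turned to 0.24 with classes weighted. Its sign was thus not settled.

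The callus share difference (2.97 points) was 2.69 at 5%, 3.18 without a limit, 2.40 thinned, 3.28 at 3000 UMIs and 3.45 in named classes. The trabecular one (-0.92) was -1.51 thinned and turned to 0.15 with all barcodes. Trabecular bone over callus (-0.21) was -0.25 at 5%, -0.18 with 1 floor, -0.23 with doublets kept, -0.15 without hemoglobin, -0.69 as a mean over cells, -0.71 thinned, -0.19 at 3000 UMIs and -0.22 in named classes.

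Classes with a higher sum in GC were 8 of 13 in callus at 3000 UMIs and 3 of 9 in trabecular bone when thinned. Genes past the threshold in callus were 8 at a lower fold, 7 of them higher in GC, and 2 at 2-fold, all higher in GC. In trabecular bone they were 2 as a mean over cells, 2 at that lower fold and 0 at 2-fold, none of them higher in GC. The share of all genes is given at 1.5-fold alone, so the counts at other folds have no background beside them. Over 11 settings no gene changed sign in callus (mt-Atp8 2.15 to 2.21, mt-Nd4l 1.30 to 1.49). In trabecular bone mt-Cytb did in 2 of these 11 settings and mt-Atp6 in 5, and the other 8 genes in none. Weighting classes by cells, which turned the trabecular sum, and taking all barcodes were not among the 11. The sign of single genes under those settings was not tested.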

Other observations

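Classes and barcodes outside the comparisons gave these values. In control callus the 240 monocyte-like cells had the 10 genes at 10130 CPM, and plasma cell-like cells had them at 11632 CPM in control callus (19 cells) and 10179 in GC trabecular bone (15 cells). Early erythroid-like cells of control trabecular bone had 18689 CPM in 19 cells, beside 6357 CPM in erythroid-like cells, with mt-Nd1 at 2454 and 525 CPM and mt-Atp6 at 8184 and 3457 CPM. Plasmacytoid dendritic cell-like cells of control trabecular bone had 20207 CPM in 33 cells. Cells over the 10% limit, though far richer in mt- UMIs, had the 10 genes at a share close to that of the kept cells in callus (47.4% and 48.3% in control, 53.0% and 51.2% in GC) and at a higher one in trabecular bone (51.8% and 44.5% in control, 51.0% and 43.6% in GC).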
